A study of Mus musculus with 4 samples.

Results

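The T cell receptor proximal signalling machinery is the set of proteins that turns binding of the receptor at the cell surface into calcium, Ras and NF-kappaB signals. Here it was taken as a fixed list of 46 genes, namely CD3 chains, kinases, phosphatases, adaptors, downstream enzymes and negative regulators, out of 50600 gene identifiers in the files. The rule for membership uses no measured value. All 46 symbols matched a single gene each. RNA of primary T cells from mice of the strain C57BL/6NJ was sequenced in 4 libraries, which the labels number as biological replicates 1 to 4 and which form 1 group. The file headers call the cells Th0, activated, at 16 h, and the labels name a CD4+ T cell protocol for differentiation. Helper T cells activated in the absence of lineage-directing cytokines are usually called Th0. The labels give a shared donor identifier, no sex and no age, and do not say whether the replicates came from separate animals, so p-values measure only the spread between these samples. Conditions could not be compared. The questions were at what levels the members stood, which paralogue prevailed in each family, how positive and negative regulators compared within a library, and how far the replicates differed.

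When the receptor is bound, the kinase LCK phosphorylates tyrosine motifs in the tails of the CD3 and zeta chains, which recruit the kinase ZAP70. ZAP70 phosphorylates the adaptors LAT and SLP-76 (encoded by Lcp2), on which phospholipase C gamma, VAV exchange factors and GRB2-family adaptors assemble. Diacylglycerol made by the phospholipase switches on RASGRP1 and protein kinase C theta, the latter upstream of BCL10 and MALT1. Each step has brakes: CSK and several phosphatases act on the kinases, CBL proteins mark active components for degradation, diacylglycerol kinases remove the lipid messenger, and Ras GTPase-activating proteins switch Ras off.

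Levels are in TPM, computed from the deposited read pair counts per exonic base of a gene and scaled to the same total in each library, and are given for replicates 1 to 4 in that order or as mean ± SD (n = 4). The libraries held 46192242 to 63313389 counted read pairs. The labelled cell type matched its markers: every library held all 8 T cell marker genes at 1 TPM or above, with Trac, the receptor alpha constant region, at 1883 ± 25.6 TPM and the coreceptor gene Cd4 at 749 ± 30.2 TPM. Of the CD8 coreceptor genes, Cd8a lay at 0.99, 1.06, 0.831 and 0.225 TPM but Cd8b1 at 60.1, 61.1, 53.3 and 55.5 TPM. Of the markers of other cells, 0 of 7 B cell, 1 of 10 myeloid, 0 of 6 NK, 1 of 4 CD8 T cell, 1 of 5 gamma-delta T cell and 0 of 8 erythroid and platelet genes were at 1 TPM in every library. The libraries differed in sex-linked genes, with Xist at 141, 116, 0.269 and 0.303 TPM and Ddx3y at 0.0597, 0.104, 39.7 and 42.8 TPM. Replicates 1 and 2 thus had a female pattern and replicates 3 and 4 a male one. The libraries therefore did not all come from a single animal, despite the shared donor identifier. The spread between replicates includes this difference of sex. None of the members lies on chromosome X or Y (0 of 46).

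The members stood high among expressed genes. In every library 45 of 46 reached 1 TPM, against 45.2% of all nuclear protein-coding genes, and the count was also 45 at floors of 0.5 and 5 TPM. The exception was Syk. A mean of 100 TPM or more was reached by 25 of 46 members, whereas 20.0% of the 9840 nuclear protein-coding genes at 1 TPM in every library did so. The median member lay at 133 TPM and the median of those 9840 genes at 32.7 TPM. As the list was chosen for its function in T cells, these shares describe it and were not tested.

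**Figure D1:**
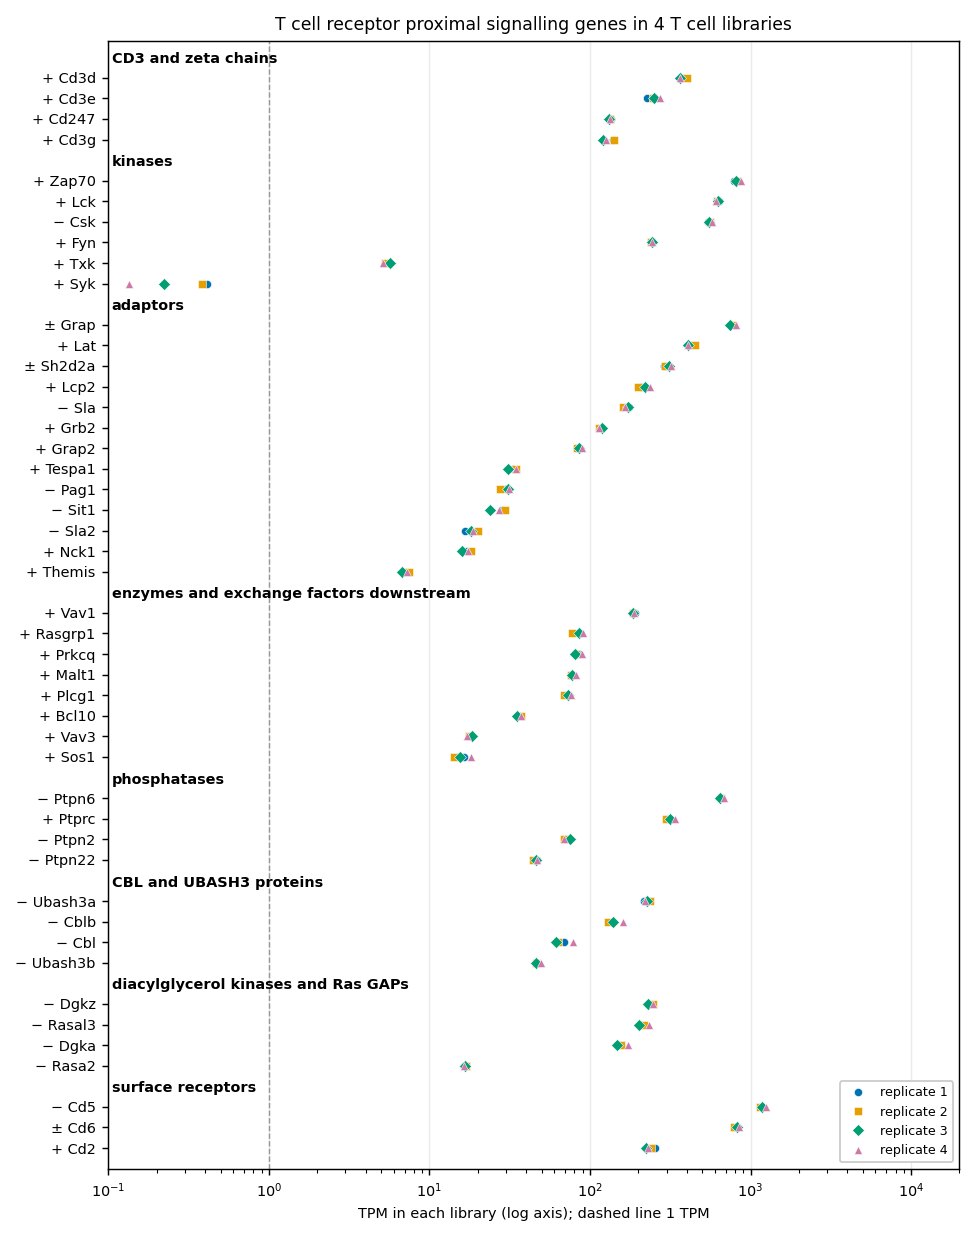
TPM of each member in each of the 4 libraries, on a log axis, in 8 functional classes ordered by mean level, with +, − and ± marking positive, negative and mixed regulators and points marking replicates. Apart from Syk, between 0.135 and 0.411 TPM, all members lie to the right of the dashed line at 1 TPM, and the replicates of most members fall on top of each other.

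Promoter windows are shown of the CD3 cluster, 3 neighbouring genes of the same receptor complex. Those of the ZAP70 and SYK kinase genes are also shown, a pair of paralogues near the top and at the bottom of the list. Windows run from 250 bases before to 50 after a start site, on GRCm38.p6 (RefSeq). Capitals mark matches, on either strand, to the GC box (GGGCGG), the TATA box (TATAAA), the CCAAT box (CCAAT), an ETS motif (CCGGAAGT) or a RUNX motif (TGTGGT); no matches overlap in these windows. Where RefSeq lists several starts (3 for Zap70, 2 for Syk) the most upstream is shown.
Cd3e (chr9:45009562-45009861, minus strand): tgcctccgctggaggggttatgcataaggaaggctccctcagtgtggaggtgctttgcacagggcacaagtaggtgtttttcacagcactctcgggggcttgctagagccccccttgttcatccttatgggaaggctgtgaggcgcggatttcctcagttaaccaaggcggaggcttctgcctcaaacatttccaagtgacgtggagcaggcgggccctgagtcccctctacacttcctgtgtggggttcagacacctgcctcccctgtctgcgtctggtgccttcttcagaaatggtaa
Cd3d (chr9:44981536-44981835, plus strand): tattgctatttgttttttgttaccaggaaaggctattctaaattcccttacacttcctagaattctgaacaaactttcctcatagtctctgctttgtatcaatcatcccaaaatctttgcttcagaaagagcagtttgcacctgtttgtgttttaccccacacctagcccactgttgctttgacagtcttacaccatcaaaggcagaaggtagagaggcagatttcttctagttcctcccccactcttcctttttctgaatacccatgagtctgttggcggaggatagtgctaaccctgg
Cd3g (chr9:44980382-44980681, minus strand): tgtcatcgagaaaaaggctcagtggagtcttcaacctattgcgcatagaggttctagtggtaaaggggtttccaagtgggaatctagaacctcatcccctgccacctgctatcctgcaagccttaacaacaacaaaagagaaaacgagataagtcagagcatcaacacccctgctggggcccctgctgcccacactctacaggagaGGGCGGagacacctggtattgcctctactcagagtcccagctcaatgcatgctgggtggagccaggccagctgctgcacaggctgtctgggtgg
Zap70 (chr1:36761548-36761847, plus strand): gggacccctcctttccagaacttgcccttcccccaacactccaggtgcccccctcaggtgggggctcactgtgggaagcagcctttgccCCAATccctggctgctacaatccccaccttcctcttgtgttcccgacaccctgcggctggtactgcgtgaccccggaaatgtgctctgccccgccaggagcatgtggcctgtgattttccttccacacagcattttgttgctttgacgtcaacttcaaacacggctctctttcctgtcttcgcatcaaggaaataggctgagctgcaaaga
Syk (chr13:52583187-52583486, plus strand): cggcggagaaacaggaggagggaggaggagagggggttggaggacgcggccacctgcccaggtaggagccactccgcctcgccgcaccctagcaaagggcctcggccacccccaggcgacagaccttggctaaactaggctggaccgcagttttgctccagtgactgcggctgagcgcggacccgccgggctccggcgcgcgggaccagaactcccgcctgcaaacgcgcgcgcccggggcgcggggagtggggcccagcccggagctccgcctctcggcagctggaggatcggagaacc

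The Cd3g window held 1 GC box and the Zap70 window 1 CCAAT box, and the other 3 windows none of the 5 motifs. The Syk window held 31 CpG dinucleotides and was 72% G or C. The Zap70 and Cd3e windows held 8 CpG each, Cd3g 4 and Cd3d 1, and their GC content ran from 42.3% in Cd3d to 57.3% in Zap70. RefSeq windows were found for 37 of the 46 members, 56 windows in all. A GC box stood in 44.6% of these against 35.7% of the 32851 windows of all genes, a TATA box in 8.93% against 13.6%, a CCAAT box in 26.8% against 37.4%, the ETS motif in 1.79% against 3.89% and the RUNX motif in 12.5% against 16.8%. These matches describe letters in short windows; several windows belong to the same gene, and no binding was measured.

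The CD3 and zeta chains, which carry the tyrosine motifs of the receptor, were all abundant but not equally so. Cd3d, the delta chain (ENSMUSG00000032094.8, chromosome 9, 44981786 to 44987339), lay at 382, 404, 365 and 364 TPM, and its divergent neighbour Cd3g, the gamma chain (ENSMUSG00000002033.14, chromosome 9, 44969572 to 44980431), at 139, 142, 121 and 127 TPM. The groups of values did not overlap, and Cd3d exceeded Cd3g in 4 of 4 libraries by 2.88 ± 0.116-fold. The annotated genes lie 1354 bases apart. Cd3e, the epsilon chain, which is shared by both CD3 dimers, lay at 227, 246, 249 and 275 TPM, highest in replicate 4 and lowest in replicate 1. Cd247, the zeta chain, lay at 135, 133, 132 and 134 TPM, with an SD of 0.964% of its mean. Of the summed TPM of these 4 genes Cd3d held 42.4 ± 1.43%, Cd3e 27.9 ± 2.18%, Cd247 14.9 ± 0.382% and Cd3g 14.8 ± 0.909%. These shares depend on the length used. With the longest transcript as length, Cd3d lay at 335 TPM, Cd3e at 314 TPM, Cd247 at 190 TPM and Cd3g at 134 TPM. Without division by length, Cd3e lay above Cd3d in each library. Of the exonic bases of Cd247, 3.87% also belong to the same-strand gene Gm16565, and reads there may have been left uncounted.

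Zap70 was by far the main kinase of its family and Syk the lowest member. Zap70, which binds the phosphorylated receptor tails (ENSMUSG00000026117.10, chromosome 1, 36761798 to 36782818), lay at 783, 819, 814 and 871 TPM, above 98.6% of expressed protein-coding genes. Syk, the paralogue that does this work in B cells and myeloid cells (ENSMUSG00000021457.14, chromosome 13, 52583173 to 52648792), lay at 0.411, 0.383, 0.221 and 0.135 TPM, from 62, 53, 39 and 17 counted read pairs. The difference on the log2(TPM + 1) scale was 9.32 ± 0.205, with Zap70 higher in 4 of 4 libraries, and Syk made up 0.0355 ± 0.0171% of their summed TPM.

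Markers of B cells differed in value between the libraries as well as Syk, and their part in its level was not tested. Their counts were low, with Cd79a at 56, 53, 40 and 6 read pairs. In edgeR's test of spread between replicates, described below, adjusted p was 0.950 for Cd79b, 0.982 for Ms4a1 and 0.996 for Pax5 and Cd22. Cd79a, Cr2 and Ebf1 did not enter that test. Summed over 7 B cell genes, the level was 6.66, 4.78, 4.56 and 2.12 TPM in replicates 1 to 4. Cd79a, of the B cell receptor, lay at 2.39, 2.46, 1.46 and 0.307 TPM, its partner chain Cd79b at 2.78, 0.945, 1.7 and 0.885 TPM and Ms4a1 at 0.622, 0.459, 0.411 and 0.205 TPM. Replicate 4 was the lowest library for Syk and for 5 of the 7 genes, namely these 3, Pax5 and Cr2. Cd22 was lowest in replicate 1 at 0.197 TPM, and Ebf1 was highest in replicate 4 at 0.107 TPM. In the 3 genes given per library, the highest value fell in replicate 1, as for Syk, in Cd79b and Ms4a1 but not in Cd79a. Summed markers of myeloid cells, in which SYK also acts, lay at 4.08, 1.94, 6.29 and 4.80 TPM, mostly Cd68, with 5 of 10 genes at 0 in every library, among them Cd14, S100a8 and S100a9. In bulk RNA, fewer cells of a type and less RNA per cell cannot be told apart.

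**Figure D2:**
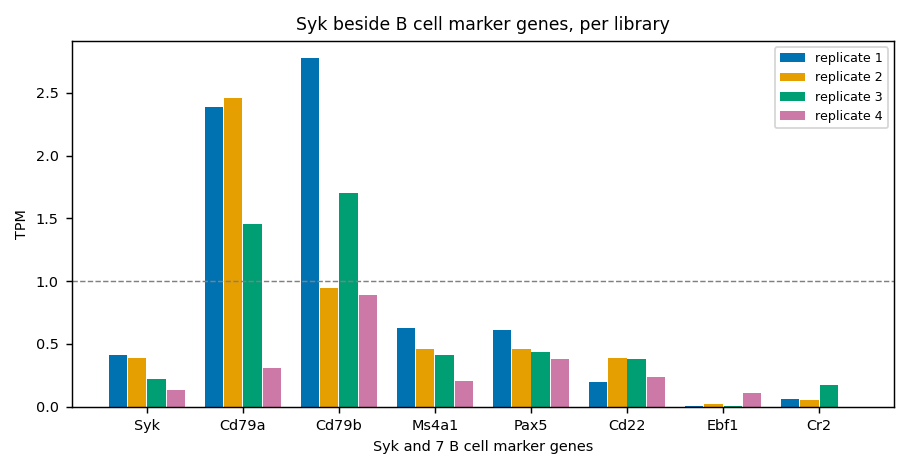
TPM of Syk and of 7 B cell marker genes in each library (bars, 1 per replicate; dashed line 1 TPM). Syk is below 0.5 TPM in every library, and replicate 4 has the lowest bars for Syk, Cd79a, Cd79b, Ms4a1, Pax5 and Cr2 but not for Cd22, lowest in replicate 1, or Ebf1, highest in replicate 4.

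Lck and Fyn made up nearly all of the SRC-family kinase transcripts. Lck, the kinase that starts signalling, lay at 633, 617, 629.9 and 608 TPM, and Fyn, its relative in T cells, at 239, 239, 243 and 245 TPM. Lck exceeded Fyn 2.58 ± 0.0656-fold, in 4 of 4 libraries. Together with 6 other SRC-family genes they were compared by share of summed TPM, of which Lck held 71.8 ± 0.527% and Fyn 27.9 ± 0.515%. The next was Fgr at 0.787, 1.52, 1.84 and 1.14 TPM. Of the exonic bases of Lck 0.854% also belong to Mir8119. Csk, the kinase that inactivates LCK and FYN, lay at 541, 556, 554 and 574 TPM. Lck minus Csk came to 0.16 ± 0.0604 in log2(TPM + 1), with Lck above Csk in each library. Pag1, the membrane adaptor that recruits CSK, lay far lower at 29.8, 27.6, 30.8 and 31.5 TPM, and Csk exceeded it 18.6 ± 1.01-fold. Txk, a TEC-family kinase, lay at 5.58, 5.3, 5.69 and 5.13 TPM. Of its relatives outside the list, Tec lay at 2.81 ± 0.361 TPM and Btk at 1.97 ± 0.287 TPM.

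The adaptors spanned a wide range, from Grap at 771 TPM to Themis at 7.13 TPM. Lat, the membrane scaffold phosphorylated by ZAP70, lay at 425, 450.1, 408 and 411 TPM, and its cytosolic partner Lcp2 at 207, 198, 221 and 238 TPM. Lat was highest in replicate 2 and Lcp2 in replicate 4. Of the exonic bases of Lat 2.71% are shared with Mir7058. Sh2d2a, an adaptor that binds LCK, lay at 303 ± 14.4 TPM. Low in the class were Tespa1 at 33.3 ± 1.69 TPM and Themis at 7.13 ± 0.298 TPM, both best known from thymocyte selection, and Nck1, which links the receptor to actin, at 17.2 ± 0.893 TPM. Nck2, its paralogue outside the list, lay at 12.8 ± 0.591 TPM, and Nck1 held 57.4 ± 1.49% of the pair. Themis2, the B cell and myeloid paralogue of Themis, lay at 0.625, 0.22, 0.568 and 0.121 TPM.

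Of the GRB2-family adaptors the leading transcript was Grap, not Grap2 or Grb2. Grap, an adaptor related to GRB2 for which both positive and negative roles are described, lay at 746, 779.8, 743 and 816 TPM. Grb2, which brings SOS to LAT, lay at 115, 114, 119 and 113 TPM, and Grap2, which couples LAT to SLP-76, at 83.4, 83.1, 85.5 and 88.6 TPM. The groups did not overlap: Grap exceeded Grb2 6.68 ± 0.419-fold and Grap2 9.06 ± 0.301-fold, and Grb2 exceeded Grap2 1.36 ± 0.053-fold, each in all 4 libraries. Grap held 79.3 ± 0.789% of the summed TPM of the 3 genes. Sla and Sla2 encode adaptors that lower receptor levels through CBL. Sla lay at 175, 160.2, 173 and 165 TPM and Sla2 at 16.8, 20.1, 18.2 and 18.7 TPM, a ratio of 9.19 ± 1.06 and the same order in 4 of 4 libraries. Sit1, a transmembrane adaptor that dampens signalling, lay at 28.4, 29.7, 23.7 and 27.1 TPM.

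**Figure D3:**
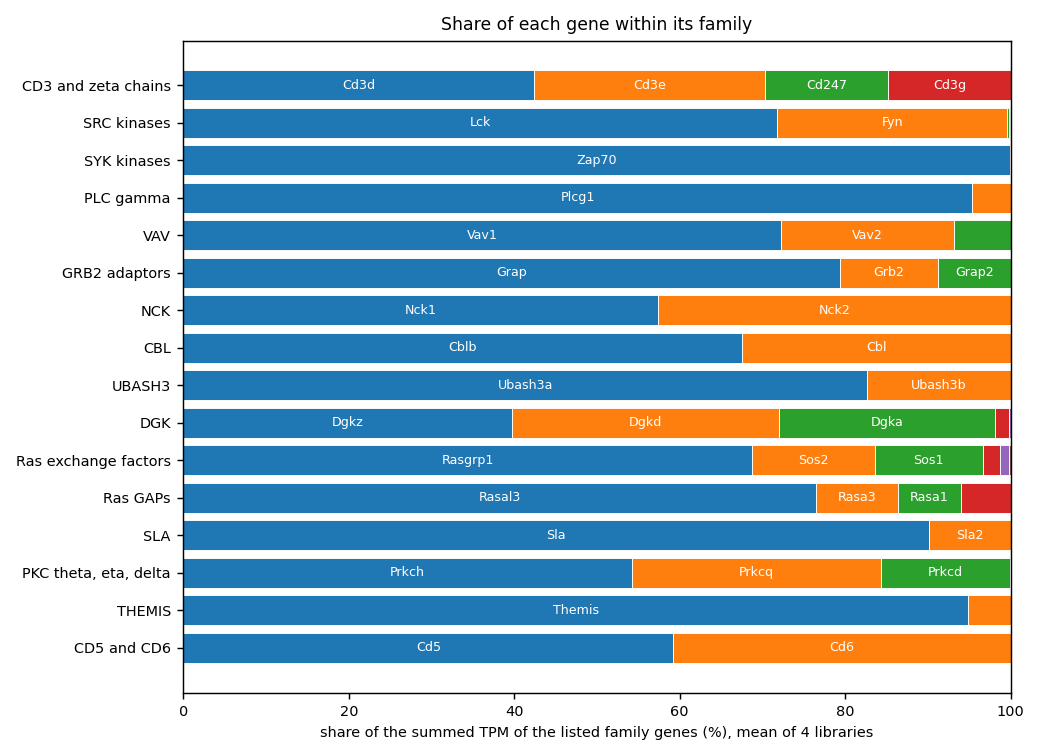
Share of each gene in the summed TPM of its family (horizontal bars, mean of 4 libraries, in percent); the families include genes outside the list of 46, and slices under 7% carry no name. Zap70, Plcg1, Themis and Sla each take over 90% of the bar, while the diacylglycerol kinases and the CD3 chains are divided among several genes.

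Downstream of LAT, with the deposited lengths, each enzyme family but that of protein kinase C was led by a member of the list. Plcg1, the phospholipase that makes diacylglycerol and the calcium messenger, lay at 71.8, 69, 73 and 76.6 TPM, and its paralogue Plcg2 at 3.78, 3.63, 2.44 and 4.28 TPM. Vav1, the exchange factor of blood cells, lay at 190.5, 185, 185 and 189 TPM and Vav3 at 17.9, 17.5, 18.3 and 17.1 TPM. Vav1 exceeded Vav3 10.6 ± 0.393-fold, in 4 of 4 libraries. Between them stood Vav2, outside the list, at 54.3 ± 1.49 TPM, 20.9 ± 0.503% of the family. Prkcq, protein kinase C theta, lay at 84.2 ± 3.67 TPM and so below its relative Prkch, outside the list, at 152 ± 4.98 TPM. Prkch also held more read pairs than Prkcq in each library, at 10693 against 9700 in replicate 1. With the longest transcript as length Prkcq lay at 118 TPM, and no such value is given for Prkch. Malt1 and Bcl10, which encode partners in the path to NF-kappaB, lay at 77.9 ± 3.07 TPM and 36.5 ± 1.04 TPM, but with the longest transcript as length at 48.6 and 55.5 TPM, so no order of the 2 is given.

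Ras activators and Ras brakes were each led by a form known from blood cells. Rasgrp1, the diacylglycerol-driven exchange factor, lay at 85.1, 77.8, 85.2 and 90.3 TPM, and Sos1, the exchange factor brought by GRB2, at 16.4, 14.1, 15.5 and 18.2 TPM. Rasgrp1 was 5.28 ± 0.264-fold higher, in 4 of 4 libraries, and held 68.8 ± 0.897% of the 6 exchange factors, while Sos2 stood beside Sos1 at 18.2 ± 0.681 TPM. The Ras GTPase-activating genes were Rasal3 at 204, 218, 201 and 234 TPM and Rasa2 at 16.4, 16.9, 16.6 and 16.5 TPM. The ratio of Rasal3 to Rasa2 was 12.9 ± 0.897 with the deposited lengths. With the longest transcript as length Rasa2 lay at 31.5 TPM. The difference on the log2(TPM + 1) scale then fell from 3.61 to 2.72, still with Rasal3 higher. Rasal3 held 76.5 ± 1.1% of the 4 such genes compared, with Rasa3 at 27.5 ± 1.67 TPM and Rasa1 at 21.5 ± 1.62 TPM.

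Diacylglycerol kinases, which oppose RASGRP1 by removing its lipid activator, were shared among several genes. Dgkz lay at 228, 248, 229 and 249 TPM and Dgka at 153, 157, 147 and 173 TPM. The ranges did not overlap, and Dgkz exceeded Dgka 1.52 ± 0.0676-fold in each library. Dgkd, outside the list, lay between them at 194 ± 7.32 TPM. Of the summed TPM of the 5 kinases compared, Dgkz, Dgkd and Dgka held 39.7 ± 0.857%, 32.3 ± 0.576% and 26.2 ± 0.716%. Dgkq, also detected, was not among the 5. Rasgrp1 itself lay lower, with Dgka 1.86 ± 0.128-fold above it, also in each library.

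Ptpn6 and Ptprc lay above Ptpn2 and Ptpn22 among the phosphatase genes. With the longest transcript as length Ptpn22, at 88.8 TPM, lay above Ptpn2, at 65.3 TPM, so the order of the lower pair depends on it. Ptpn6, which encodes the inhibitory phosphatase SHP-1, lay at 655, 651, 643 and 688 TPM, and Ptprc, which encodes CD45 and keeps LCK primed, at 306, 298, 317 and 338 TPM. Ptpn22, which dephosphorylates LCK and ZAP70, lay at 46.5, 44.1, 45.8 and 47.1 TPM, and Ptpn2, which acts on SRC-family and JAK kinases, at 69.6, 69.2, 75.3 and 68.8 TPM. The value of Ptprc depends on the length used. Its deposited exonic length is 18313 bases, 3.19 times its longest annotated transcript of 5740 bases, and on that transcript its level was 791 ± 44.2 TPM. Ptprc minus Csk accordingly was -0.82 ± 0.0575 in log2(TPM + 1) with the deposited length and 0.41 with the longest transcript, so no order of these 2 genes is given.

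The CBL genes, which encode ubiquitin ligases, and the UBASH3 genes, which also restrain signalling, each had a leading paralogue. Cblb lay at 138, 129, 139.5 and 159 TPM and Cbl at 69.1, 63.7, 61.5 and 78.7 TPM, and both were highest in replicate 4. Cblb exceeded Cbl 2.08 ± 0.128-fold, in 4 of 4 libraries, and Cblc had no count in any library. Ubash3a, the lymphocyte form, lay at 216, 235, 226 and 221 TPM and the widely expressed Ubash3b at 46.2, 46.3, 46.3 and 49.6 TPM. Their ratio was 4.78 ± 0.267 with the deposited lengths. With the longest transcripts of GENCODE M21 Ubash3a lay at 77.2 TPM. The difference on the log2(TPM + 1) scale fell from 2.23 to 0.84, still with Ubash3a higher in 4 of 4 libraries. That transcript of Ubash3a has 7635 bases, but reads were counted over 3328 exonic bases from GENCODE M13. The fall therefore carries a mismatch of releases, and 77.2 TPM may be too low.

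The surface receptor genes were among the highest members. Cd5, an inhibitory receptor whose level is known to follow the strength of receptor signalling (ENSMUSG00000024669.7, chromosome 19, 10718143 to 10738974), lay at 1173, 1146, 1176 and 1241 TPM and headed the whole list. With the longest transcript of GENCODE M21 as length Cd5 lay at 646 TPM, below Zap70, Ptprc, Lck and Grap. That transcript, of 2989 bases, exceeds the deposited exonic length of 2069 bases, from GENCODE M13, over which reads were counted. The lower level of Cd5 therefore carries a mismatch of releases and does not settle its rank. Its neighbour and paralogue Cd6, 50366 bases away on the same strand, lay at 799, 791, 821 and 852 TPM, and Cd2, an adhesion receptor that aids signalling, at 255, 241, 224 and 231 TPM. The ranges of Cd5 and Cd6 did not overlap. Cd5 exceeded Cd6 1.45 ± 0.0146-fold in TPM in 4 of 4 libraries.

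All 18 pairs compared, 12 of paralogues and 6 of opposing or partner genes, kept their direction in 4 of 4 libraries. Each gave an exact two-sided sign-flip permutation p of 0.125, also after Benjamini-Hochberg adjustment over the 18, which is the smallest p that 4 libraries allow, so no pair can pass 0.05 in this design. The smallest difference against its spread was that of Lck and Csk, from 0.08 to 0.22 over the libraries. The orders hold per exonic base. Without division by length (CPM), Lck minus Csk became -0.19 and Cd5 minus Cd6 -0.18, so both signs turned, and Cbl minus Cblb shrank to -0.09. With the longest transcript as length, Grap2 minus Grb2 became -1.32 and Rasgrp1 minus Dgka -1.53. The longest transcript of Grap2, from GENCODE M21, exceeds its deposited exonic length, so the value for Grap2 carries a mismatch of releases.

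**Figure D4:**
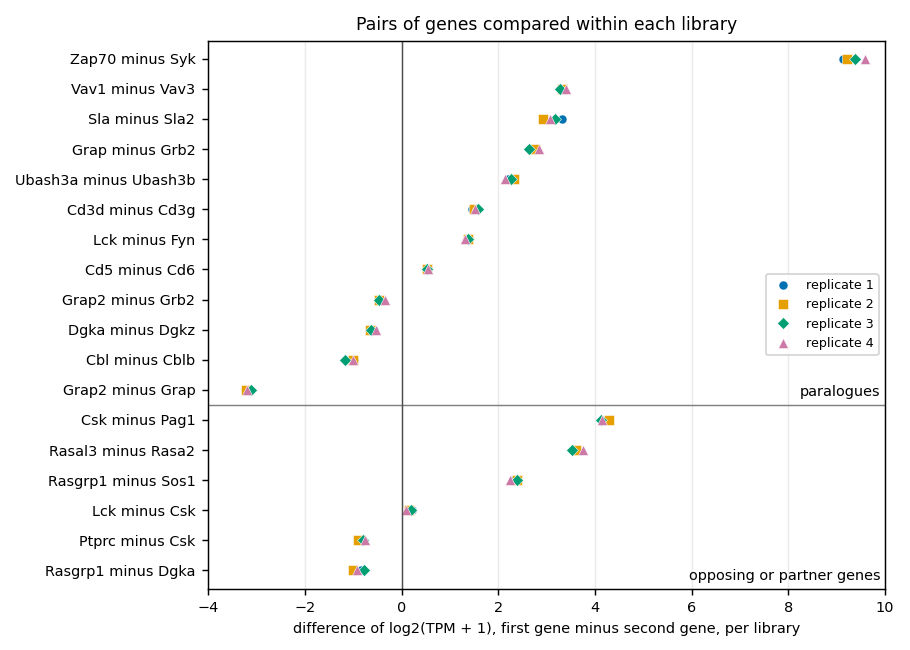
Difference of log2(TPM + 1) between the genes of each of 18 pairs, within each library (points, 1 per replicate; vertical line at 0). The 4 points of a pair always lie on the same side of 0, farthest out for Zap70 minus Syk and closest to it for Lck minus Csk.

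With the deposited exonic lengths, the median negative regulator lay above the median positive one. The 17 negative regulators had a median of 141 TPM, from Rasa2 at 16.6 TPM to Cd5 at 1184 TPM, and the 26 positive regulators 100.3 TPM, from Syk at 0.287 TPM to Zap70 at 822 TPM. The 3 members with mixed roles, Cd6, Grap and Sh2d2a, had a median of 771 TPM. Within the libraries, the median log2(TPM + 1) of positive minus that of negative regulators was -0.47, -0.40, -0.46 and -0.65 in replicates 1 to 4, a mean of -0.50 ± 0.108. Of the 17 negative regulators 9 lay above the median positive regulator. A median divides its own group evenly, so this count is near what like groups would give. The size of this difference depends on how members with mixed roles are assigned: it was -0.13 with them counted as positive and -0.70 as negative. It also became -0.29 without Syk and -0.77 in CPM; Syk is the 1 member under a mean of 1 TPM. With the longest transcript as length the order turned. The median negative regulator was then Ptpn22 at 88.8 TPM, and the middle positive ones were Grb2 at 98.0 TPM and Prkcq at 118 TPM. Ubash3a lay below Ptpn22 there, at 77.2 TPM, on a GENCODE M21 transcript longer than the exonic length counted. The next negative regulator above Ptpn22 was Cblb at 106 TPM, between Grb2 and Prkcq. The sign of the difference therefore depends on the length used, and its turn may rest in part on this mismatch of releases. No test was made of this difference over members.

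The members varied little between replicates, as did other abundant genes. All 46 passed the filter on low counts, Syk with as few as 17 read pairs in a library, and 0 of 46 varied more than genes of like abundance in edgeR's quasi-likelihood test (adjusted p under 0.05), against 0.228% of the 12285 genes tested; the lowest adjusted p was 0.845, for Cbl. At an unadjusted p under 0.05 there were 2 of 46 members against 5.42% of all tested genes, and DESeq2 marked 0 of 46 as dispersion outliers against 0.403% of all genes. These shares of members lie near the background. The median SD of log2 CPM was 0.0643 over the members, 0.102 over all tested genes and 0.0626 over the 2037 tested genes whose mean reached 100 TPM.

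The members at an unadjusted p under 0.05 were Cbl (SD 0.141 log2 CPM, edgeR adjusted p = 0.845) and Cd3g (SD 0.127, edgeR adjusted p = 0.850). Syk had the highest SD, 0.730 log2 CPM, at the lowest counts, and its edgeR adjusted p was 0.962. The steadiest member was Fyn, with an SD of 0.00999 log2 CPM. An SD under 0.2 was found for 45 of 46 members. The highest value fell in replicates 1 to 4 for 7, 13, 6 and 20 of the 46 members (15.2, 28.3, 13 and 43.5%), and for 22.2, 24.0, 23.8 and 30.0% of all tested genes. Cd5, Zap70, Cd6, Grap, Ptpn6, Cbl and Cblb were among those highest in replicate 4. The lowest value fell in replicates 1 to 4 for 7, 10, 15 and 14 members (15.2, 21.7, 32.6 and 30.4%), and for 22.5, 24.6, 23.7 and 29.1% of all tested genes. Over the members, the median deviation from the mean of the 4 libraries in replicate 4 was 0.017 on the log2 CPM scale, and over all tested genes 0.003. By Dixon's rule 1 library stood apart from the other 3 in 2 of 46 members, Ptpn2 and Ubash3b, and in 6.03% of the nuclear protein-coding genes at 1 TPM in every library.

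**Figure D5:**
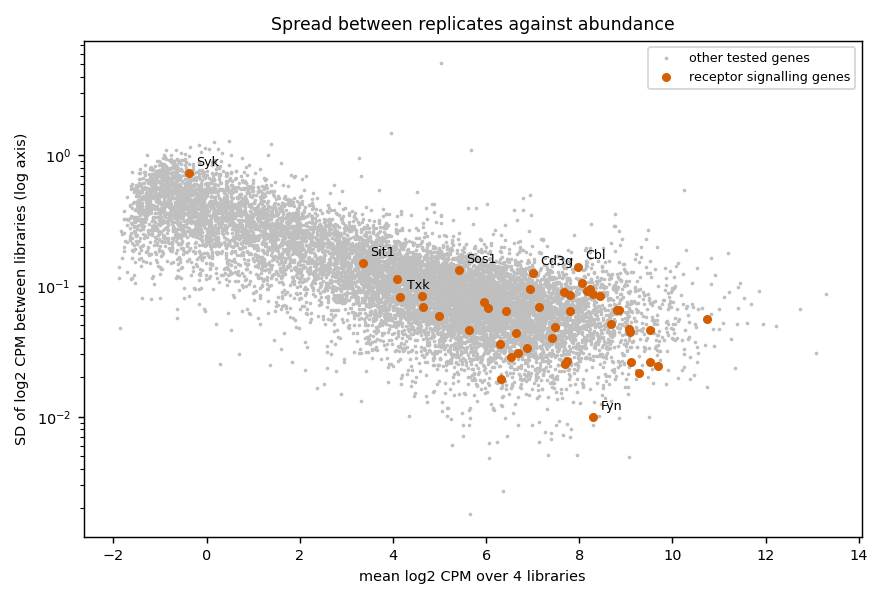
SD of log2 CPM between the 4 libraries (log axis) against mean log2 CPM for 12285 tested genes (grey) and the 46 members (orange), with 7 members named. The members lie inside the cloud of genes of like abundance, with Syk at 0.73 in the low-abundance part and Fyn at the lower edge.

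Outside the list, 35 of 50 further pathway genes reached 1 TPM in each of the libraries. The median over the 50 was 18.7 TPM. Spread was tested in 41 of them and none passed (0 of 41, edgeR, lowest adjusted p = 0.850), with 2 at an unadjusted p under 0.05. The highest after Trac was Ptprcap, which encodes a CD45-associated protein, at 1303, 1541, 1289 and 1356 TPM, with replicate 2 above the others. The costimulatory receptor gene Cd28 lay at 234 ± 7.37 TPM and Was, the actin regulator of blood cells, at 203 ± 4.52 TPM. Trbc2, a receptor beta constant region, lay at 1241 ± 17.5 TPM, and its near-identical neighbour makes that level uncertain. Sharing of reads between the paralogues of the 46 was not tested.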

How the data were processed

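RNA-seq of 4 libraries of mouse T cells (1 group) was used. Per the file headers, the authors counted read pairs per gene with featureCounts 1.4.6-p4 on STAR alignments, over exons grouped by gene, with strand setting 2, both mates required and GENCODE M13; the labels give mm10. The deposited counts are raw. For STAR, no header or label states a version. No option for multi-mapping reads was recorded, so reads shared between genes may be missing from both. Whether the library was polyA+ selected was not settled: the labels name the assay total RNA-seq and a polyA+ protocol.

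TPM was computed from counts and the deposited exonic length. The longest transcripts used as an alternative length came from GENCODE M21, whereas counts and exonic lengths came from GENCODE M13. For Cd5, Cd6, Ubash3a, Grap2, Malt1 and Cblb the longest transcript exceeds the deposited exonic length. Reads over the extra bases were not counted, so the alternative levels of these genes may be too low. Symbols came from GENCODE M21 (50376 of 50600 identifiers matched). Spread between replicates came from a robust quasi-likelihood fit of the counts (edgeR 4.0.16, R 4.3.3, TMM, filterByExpr, intercept only). It compares a gene's residual quasi-dispersion (3 degrees of freedom) with the prior trend (13.9) by F, with Benjamini-Hochberg adjustment over all genes. Counts were simulated for the spread between the 4 libraries (12150 genes). The test called 53 of 100 genes given extra SD of 0.5 log2, 91 of 100 given 1 log2, and 1 of 11950 others. The genes given extra SD were drawn from those with a mean of at least 100 counts, so these rates do not cover Syk. DESeq2 1.42.0 gave an alternative. log2 CPM used a prior count of 2 and log2(TPM + 1) a pseudocount of 1. Python 3.11.15, numpy 2.4.6, pandas 2.3.3 and matplotlib 3.10.9 were used. Depth ran from 46192242 to 63313389 read pairs, so 3 counts, the limit a count of 0 allows, correspond to 0.0474 to 0.0649 CPM (counting error only).

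The members and lists were chosen with earlier results of these data known. The rule for named genes was all 46 members, the 18 pairs, and of 50 other pathway genes the 8 highest and those with a member as family partner; further genes named were picked with their values known. Some of these genes are not reported here. Promoter windows are from RefSeq on GRCm38.p6. Alternatives covered scaling, filters, floors, pseudocounts, length, assignment of mixed roles and each replicate left out.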

Additional observations from a re-analysis of the deposited data

Results flagged for a closer look

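A library was called apart from the other 3 where its gap to the nearest, divided by the range of the 4, exceeded Dixon's critical value. Of 96 results looked at, 5 were marked in this way, and chance marks about 1 in 20. Among the 46 members there were 2, against 6.03% of nuclear protein-coding genes at 1 TPM in every library.

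Ptpn2 lay at 69.6, 69.2, 75.3 and 68.8 TPM in replicates 1 to 4, with replicate 3 apart at 75.3 TPM. Ubash3b lay at 46.2, 46.3, 46.3 and 49.6 TPM, with replicate 4 apart at 49.6 TPM. Neither passed edgeR's test of spread over all genes (adjusted p = 0.996 for each).

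Within libraries, Grap2 minus Grb2 was -0.46, -0.46, -0.47 and -0.35 on the log2(TPM + 1) scale, with replicate 4 apart at -0.35. Cbl minus Cblb was -0.98, -1.01, -1.17 and -1.01, with replicate 3 apart at -1.17. Csk minus Pag1 was 4.14, 4.28, 4.12 and 4.15, with replicate 2 apart at 4.28. In these 3 pairs the sign was the same in all 4 libraries.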

How the results depend on the processing

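The count of 28 genes past the threshold of spread became 142 with no filter on low counts, 15 with a fit that is not robust, 28 with DESeq2 size factors, 84 as DESeq2 dispersion outliers, and 14 to 27 with a replicate left out (14 without replicate 3). No member passed under any of these 8 alternatives (0 of 46 in each). The detected members numbered 45 under all 6 alternatives. All 18 pairs had the same sign in every library under each of 7 alternatives, and of the 126 values 122 had the direction reported. Without the length correction (CPM), Cd5 minus Cd6 became -0.18, Lck minus Csk -0.19 and Ptprc minus Csk 1.47; with the longest transcript as length Ptprc minus Csk became 0.41. In these alternatives only the length differs, and the longest transcripts came from a later GENCODE release than the counts. The difference of positive and negative regulators became -0.13 with mixed members as positive, -0.70 with them as negative, -0.29 for members with a mean of at least 1 TPM and -0.77 in CPM, and ran from -0.53 to -0.45 with a replicate left out. With the longest transcript as length, the median negative regulator instead lay below the median positive one, a turn that may rest in part on the mismatch of releases. No paired analysis was possible because there is 1 group. Depth limits Syk, which rests on 17 to 62 read pairs in a library.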

Other observations

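Further phosphatases and adaptors outside the list were present as well. They were chosen after their values were seen. Ptpn11, which encodes the phosphatase SHP-2, lay at 134, 138, 140.1 and 151 TPM. Ptpn7 lay at 117, 113, 116 and 118 TPM and Inpp5d, the lipid phosphatase SHIP-1, at 51.9, 54.7, 58.1 and 59.8 TPM. The docking adaptors Dok1 and Dok2, which bring in Ras GTPase-activating proteins, lay at 32.7 ± 2.34 TPM and 32.6 ± 1.58 TPM, and Lax1, a LAT-like adaptor that dampens signalling, at 27.4 ± 2.78 TPM. Components that serve the receptors of B cells and myeloid cells were low: Blnk lay at 0.238, 0.203, 0.469 and 0.199 TPM, Lat2 at 1.18, 0.129, 0.951 and 0.654 TPM, Fcer1g at 0.71, 0.232, 0.971 and 0.511 TPM and Lyn at 0.198, 0.0664, 0.286 and 0.219 TPM.

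The deposited exonic length was over 2 times the longest annotated transcript for 6 of the 46 members. On the longest transcript Ptpn22 lay at 88.8 TPM, Tespa1 at 71.5 TPM and Themis at 12.9 TPM, against 45.9 TPM, 33.3 TPM and 7.13 TPM with the deposited length. In the other direction, Cd5 became 646 TPM and Cd6 467 TPM, below Zap70 at 863 TPM, so Cd5 no longer headed the list. The longest transcripts of Cd5 and Cd6, from GENCODE M21, exceed their deposited exonic lengths, so both values carry the mismatch of releases. Of the 46 members 8 lie on chromosome 9, among them the 3 CD3 genes, Cbl and Csk.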
